A study of Mus musculus with 8 samples.

Results

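Proteoglycans are proteins that carry glycosaminoglycan chains, and 10 of their genes were considered here: the secreted Dcn, Bgn, Lum, Vcan and Hspg2, and the cell surface Sdc1, Sdc2, Sdc4, Gpc1 and Gpc6. They were chosen by symbol, with earlier results of these data known, and 9 of them were listed among the 12528 genes of the table. Lum was not analysed here. The RNA came from mouse embryonic fibroblasts (MEFs) of WT and Cav1KO littermates, the latter lacking caveolin-1, a membrane protein that builds caveolae. Per the study's methods the MEFs were immortalized, and both genotypes were plated at low confluence on polyacrylamide gels coated with fibronectin. After 24 h on a stiff or a soft gel, poly(A) RNA was sequenced, which gave 4 groups named by genotype and gel (Cav1KO soft and Cav1KO stiff, WT soft and WT stiff), with 2 libraries in each. No agent was added to any group, and the age of the embryos was not given in the sources used here. Nothing in the labels says that the libraries of a group came from separate cultures, so the p-values measure only the spread between these libraries, which may be technical. The genotype cannot be told apart from any other difference between the WT and the Cav1KO cells, and in bulk RNA fewer cells of a type and less RNA per cell cannot be told apart either.

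As background, decorin (Dcn) and biglycan (Bgn) are small leucine-rich proteoglycans that bind collagen fibrils and growth factors and are abundant products of fibroblasts. Versican (Vcan) is a large chondroitin sulfate proteoglycan that binds hyaluronan in loose, provisional matrix, and perlecan (Hspg2) is a heparan sulfate proteoglycan of basement membranes. Syndecans (Sdc) span the plasma membrane and act with integrins as coreceptors for fibronectin, whereas glypicans (Gpc) are held in the membrane by a lipid anchor and modulate growth factor signals through their heparan sulfate chains.

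The values are reads per gene relative to library size, with TMM scaling (CPM), as the authors deposited them. The libraries held 17089836 to 19944952 reads, and 3 reads, taken as the limit of what a count of 0 allows, were worth 0.151 to 0.181 CPM, which covers counting error only. Cav1 itself (6:17306335-17341452 on GRCm38) ranged from 949.8 to 1157 CPM over the 4 WT libraries and from 0.0523 to 0.411 CPM over the 4 Cav1KO libraries, the latter being 1 to 8 reads, so every library matched its genotype. The cells carried fibroblast RNA: 9 of 10 fibroblast markers were listed, and their summed level was 10288 to 10425 CPM in WT stiff, 13059.5 to 13165.5 CPM in WT soft, 5407 to 6470.0 CPM in Cav1KO stiff and 14064 to 14136 CPM in Cav1KO soft. Of the markers of other cell types, 1 of 6 for macrophages and leukocytes (Cd68, 0.552 to 4.55 CPM), 2 of 5 for cartilage (Col2a1 and Sox9, summing to 53.98 to 205.1 CPM) and 2 of 5 for adipocytes (Fabp4 and Pparg) were listed, and none of those listed was at 0 in every library. The adipocyte pair summed to 6.95 to 8.82 CPM in the WT libraries and to 102.0 to 158.9 CPM in the Cav1KO libraries. The cartilage pair was higher in WT, at 153.0 to 178.5 CPM in WT stiff and 163.9 to 205.1 CPM in WT soft. In Cav1KO the cartilage pair summed to 53.98 to 73.8 CPM on stiff and 102.5 to 111.2 CPM on soft gels. Markers of epithelium, endothelium and skeletal muscle were not analysed here.

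All 9 genes are protein-coding on GRCm38 (GENCODE M21), on 9 different chromosomes. Dcn (ENSMUSG00000019929) lies at 10:97479609-97518143, Bgn (ENSMUSG00000031375) at X:73483602-73495933, and Hspg2 (ENSMUSG00000028763) at 4:137468769-137570630, all on the plus strand. Vcan (ENSMUSG00000021614) lies at 13:89655312-89742509 on the minus strand. Among the syndecans, Sdc1 (ENSMUSG00000020592) lies at 12:8771323-8793715 and Sdc2 (ENSMUSG00000022261) at 15:32920723-33034935 on the plus strand, and Sdc4 (ENSMUSG00000017009) at 2:164424247-164443887 on the minus strand. Both glypicans are on the plus strand, Gpc1 (ENSMUSG00000034220) at 1:92831645-92860779 and Gpc6 (ENSMUSG00000058571) at 14:116925315-117976544. Of the windows of 60 bases in the Gpc1 transcripts, 17.8% also occurred in another gene, on either strand. The Gpc1 exons overlap those of the antisense gene Ankmy1, and this overlap can be part of that share. Ankmy1 was not analysed here. The counting was not stated to use strand, so the Gpc1 level is uncertain. In the other 8 genes the shared windows came to 1.41% or less.

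Promoter sequence was matched for 5 of the 9 genes (Bgn, Vcan, Hspg2, Sdc1 and Sdc4) in RefSeq's GRCm38.p6. Shown here are the stretches upstream of Hspg2 (chr4:137468553-137468768), Bgn (chrX:73483351-73483600) and Sdc1 (chr12:8771146-8771322), all on the plus strand and written 5′ to 3′. These 3 genes were called by limma for a difference in stiffness response between the genotypes. Each of these calls was lost when single libraries were left out, as given below. The bases that lie inside the annotated gene were left out, 34 of the 250 for Hspg2 and 73 for Sdc1. Capitals mark GC boxes (GGGCGG or CCGCCC) and CCAAT boxes (CCAAT or ATTGG).
Hspg2: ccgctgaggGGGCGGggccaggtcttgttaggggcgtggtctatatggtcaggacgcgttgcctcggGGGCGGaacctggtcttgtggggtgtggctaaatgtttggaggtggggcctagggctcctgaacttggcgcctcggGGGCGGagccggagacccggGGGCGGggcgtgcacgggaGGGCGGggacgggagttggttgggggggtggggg
Bgn: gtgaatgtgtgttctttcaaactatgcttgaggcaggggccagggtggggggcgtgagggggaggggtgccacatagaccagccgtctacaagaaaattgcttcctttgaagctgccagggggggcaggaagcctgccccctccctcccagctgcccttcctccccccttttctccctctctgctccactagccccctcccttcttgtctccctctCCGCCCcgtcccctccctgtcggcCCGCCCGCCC
Sdc1: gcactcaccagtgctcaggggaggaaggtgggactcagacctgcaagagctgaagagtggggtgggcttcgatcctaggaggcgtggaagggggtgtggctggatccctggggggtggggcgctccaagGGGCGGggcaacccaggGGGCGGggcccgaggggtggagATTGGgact
In the 250 bases before the start, searched on both strands, the GC box occurred 5 times in Hspg2, 3 times each in Bgn and Sdc1 (for Sdc1, 1 of them in the bases not shown), 4 times in Sdc4 and 2 times in Vcan, and 32.7% of all 32851 promoters held at least 1. The CCAAT box occurred once in Sdc1 and once in Vcan (33.8% of all promoters). Matches to TEAD (GGAATG, 12.6%), AP-1 (TGANTCA, 6.75%), TATA box (TATAAA, 12.4%) and E-box (CACGTG, 6.02%) letters were not in these 5 windows.

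Per kb of exon, Sdc4 was the highest of the 9 genes in every group, followed by Bgn, and Vcan and Gpc6 were the lowest. The level of Sdc4 ran from 300.7 CPM per kb in WT stiff to 380.4 CPM per kb in Cav1KO soft, and that of Bgn from 157.5 CPM per kb in Cav1KO stiff to 304.0 CPM per kb in Cav1KO soft. The places between them and Vcan depended on the gel. On stiff gels Sdc1 and then Sdc2 came next after Bgn in both genotypes, at 71.1 and 50.1 CPM per kb in WT, whereas on soft gels Dcn came next in both, at 97.6 CPM per kb in WT and 93.5 CPM per kb in Cav1KO, ahead of Sdc2 and Sdc1. On stiff gels Dcn (42.5 CPM per kb in WT, 32.5 CPM per kb in Cav1KO) stood below Sdc2, and in Cav1KO also below Gpc1 (36.5 CPM per kb). Neighbours in these orders did not overlap between libraries except for Hspg2 (28.7 to 38.99 CPM per kb) and Gpc1 (27.6 to 35.5 CPM per kb) in WT soft. Vcan was at 3.73 to 9.95 CPM per kb across the groups, and Gpc6 at 1.75 and 2.29 CPM per kb in WT and below 0.03 CPM per kb in Cav1KO.

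**Figure D1:**
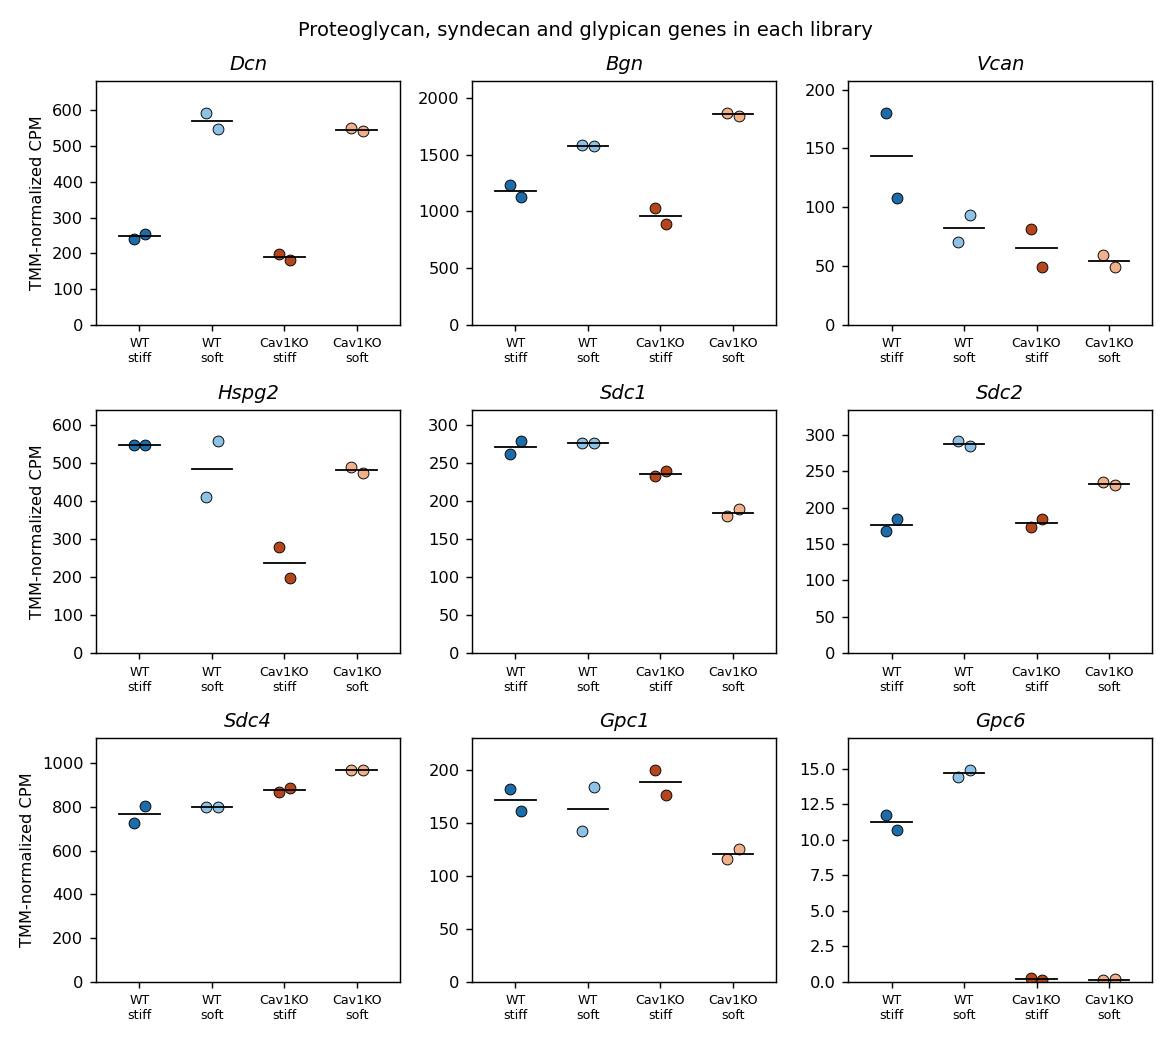
Level of each of the 9 genes in CPM (linear axis from 0, its range set per gene), with 1 point for each of the 2 libraries of a group and a line at the group mean. Dcn and Bgn stand higher on soft gels in both genotypes, Hspg2 is low in the Cav1KO stiff libraries alone, and Gpc6 is at 0.235 CPM or less in all Cav1KO libraries.

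Stiffness was compared first within each genotype. Dcn, Bgn and Sdc2 were lower on stiff than on soft gels in both WT and Cav1KO MEFs. In Cav1KO MEFs Hspg2 was lower on stiff gels as well, and Sdc1 and Gpc1 were higher there. Vcan, Sdc4 and Gpc6 did not pass the test in either genotype. By limma across 12494 genes with Benjamini-Hochberg adjustment, at an adjusted p under 0.05, 3 of the 9 genes were lower and 0 higher on stiff gels in WT, where 26.3% of all genes tested were lower, 22.1% higher and 48.4% changed in either direction. At an unadjusted p under 0.05, the number higher in WT was 1 (Vcan), edgeR on the recovered reads called 1 higher and DESeq2 0. In Cav1KO, 4 of the 9 were lower and 2 higher, against 28.2% and 27.9% of all genes and 56.1% in either direction. The median log2 difference of the 9 genes was -0.07 in WT and -0.15 in Cav1KO, beside -0.02 over all genes in each. The libraries of both groups did not overlap for 5 of the 9 genes in WT and for 7 in Cav1KO, against 75.3% and 78.5% of all genes. The test of whether the stiffness effect differed between the genotypes called 3 of the 9, 2 with a positive difference (Bgn and Hspg2, against 4.47% of all genes) and 1 with a negative difference (Sdc1, against 6.0%), beside 10.5% of all genes in either direction, with a median of 0.08 beside -0.07 over all genes.

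**Figure D2:**
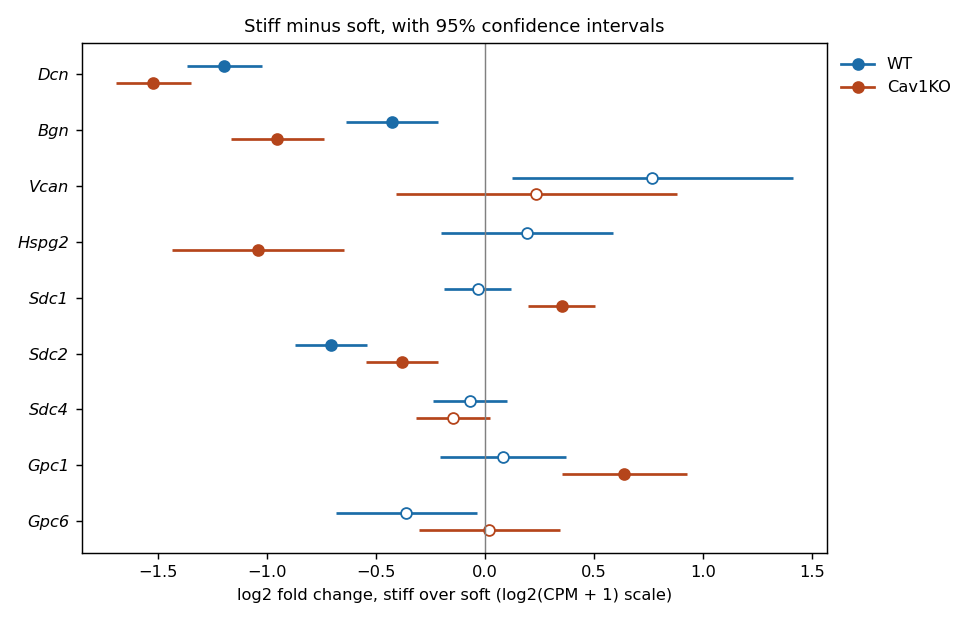
Log2 difference, stiff minus soft, on the log2(CPM + 1) scale with its 95% confidence interval, for each gene in WT and in Cav1KO MEFs. Filled points passed an adjusted p of 0.05. Dcn, Bgn and Sdc2 are filled and to the left of 0 in both genotypes, and the intervals of Hspg2 lie apart (from -0.20 to 0.59 in WT and from -1.43 to -0.64 in Cav1KO). The Gpc6 point in Cav1KO rests on 2 to 4 reads per library and shows no effect that could be read.

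Decorin showed the largest stiffness difference of the 9 genes in both genotypes. Dcn was at 241.5 and 254.4 CPM in WT stiff and at 593.1 and 546.5 CPM in WT soft. The Cav1KO libraries held 197.3 and 181.6 CPM on stiff and 549.3 and 542.5 CPM on soft gels. The stiff and soft libraries did not overlap in either genotype, and the soft libraries of WT and Cav1KO overlapped. The mean level on soft gels was 2.30 times that on stiff gels in WT (log2 difference -1.20, SE 0.08, adjusted p = 3.67e-05) and 2.88 times in Cav1KO (-1.52, SE 0.08, adjusted p = 9.12e-06). Whether this effect differed between the genotypes was tested by the interaction, which gave 0.33 (SE 0.11, adjusted p = 0.0770) and passed the threshold when the library Cav1KO stiff 1 was left out (adjusted p = 0.0368) or under quantile normalization (0.51, adjusted p = 0.0247). On stiff gels Dcn was lower in Cav1KO than in WT by limma (-0.39, SE 0.08, adjusted p = 0.00280), and on soft gels the difference was -0.06, with a 95% interval from -0.23 to 0.11 (adjusted p = 0.522).

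Biglycan was also lower on stiff gels in both genotypes, with smaller differences. Bgn was at 1229 and 1122 CPM in WT stiff and at 1581 and 1577 CPM in WT soft. In Cav1KO it was at 1031 and 889.8 CPM on stiff and at 1868 and 1840.4 CPM on soft gels. The Cav1KO libraries thus held the lowest and the highest Bgn levels of the 8 libraries. Bgn was lower on stiff gels in WT (-0.43, SE 0.09, adjusted p = 0.00561) and in Cav1KO (-0.95, SE 0.09, adjusted p = 6.96e-05), and the effects differed by 0.53 (SE 0.13, adjusted p = 0.0431). The call on the difference of effects was lost when any of 6 libraries was left out: Cav1KO soft 1 (adjusted p = 0.165), Cav1KO soft 2 (0.134), Cav1KO stiff 2 (0.104), WT soft 1 (0.120), WT soft 2 (0.0881) or WT stiff 1 (0.148). It was also lost without the mean-variance trend (adjusted p = 0.0703), and its adjusted p over all alternatives ran from 0.00256 to 0.165. Between genotypes Bgn was lower in Cav1KO on stiff gels (-0.29, SE 0.09, adjusted p = 0.0272), a call lost without Cav1KO stiff 2 (-0.19, adjusted p = 0.158), WT stiff 1 (adjusted p = 0.148), Cav1KO soft 1 or Cav1KO soft 2 (adjusted p = 0.0574 each). Quantile normalization (adjusted p = 0.148), median centring (0.0583) and 2 groups per fit (0.0928) ended it too, within a range over all alternatives from 0.00800 to 0.158. On soft gels the difference was 0.23 (SE 0.09, adjusted p = 0.0625), which passed without Cav1KO stiff 1 (adjusted p = 0.0355) or Cav1KO stiff 2 (0.0356). It also passed under quantile normalization (0.50, adjusted p = 0.00625), with the replicate block (0.0473), with 2 groups per fit (0.0175) and by DESeq2 (0.0195), and its adjusted p over all alternatives ran up to 0.220. The summed level of Dcn and Bgn was 1376 to 1471 CPM in WT stiff, 2124 to 2174 CPM in WT soft, 1071 to 1229 CPM in Cav1KO stiff and 2383 to 2418 CPM in Cav1KO soft. The summed fibroblast markers given above were likewise lowest in Cav1KO stiff and highest in Cav1KO soft. Their part in the levels of these 2 genes was not tested.

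Versican varied more between the libraries of a group than most of the 9 genes. Vcan was at 180.3 and 107.6 CPM in WT stiff and at 70.6 and 93.7 CPM in WT soft. In Cav1KO it was at 81.3 and 49.4 CPM on stiff and at 59.1 and 48.9 CPM on soft gels. The WT stiff libraries were the highest of all, and the stiff and soft libraries of Cav1KO overlapped. The stiffness difference in WT was 0.77, with a 95% interval from 0.12 to 1.41 (SE 0.28, adjusted p = 0.0511). It passed without WT stiff 2 (1.14, adjusted p = 0.0177), Cav1KO stiff 1 (adjusted p = 0.0211) or Cav1KO stiff 2 (0.0215), by edgeR (0.0424), with the replicate block (0.0382), under median centring (0.0312) and with a pseudocount of 5 (0.0489), and over all alternatives its adjusted p ran from 0.000382 to 0.310. The lowest of these, 0.000382, came from the crossed block, a pairing of replicate numbers chosen after seeing the data. In Cav1KO the difference was 0.23 (from -0.41 to 0.88, adjusted p = 0.512), and the effects differed by 0.53 (from -0.38 to 1.45, adjusted p = 0.363). Vcan was lower in Cav1KO than in WT on stiff gels (-1.12, SE 0.28, adjusted p = 0.010), where the WT mean was 2.20 times the Cav1KO mean. That call was lost without WT stiff 1 (-0.75, adjusted p = 0.0729) or Cav1KO stiff 2 (-0.77, adjusted p = 0.0545). On soft gels the difference between genotypes was -0.59 (from -1.23 to 0.06, adjusted p = 0.109), which passed with 2 groups per fit (adjusted p = 0.0144).

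Perlecan was low in 1 group. Hspg2 was at 548.2 and 547.2 CPM in WT stiff, at 410.7 and 557.9 CPM in WT soft and at 491.4 and 474.8 CPM in Cav1KO soft. In Cav1KO stiff it was at 278.7 and 197.3 CPM, below all the other libraries. The soft mean was 2.03 times the stiff mean in Cav1KO (log2 difference -1.04, SE 0.17, adjusted p = 0.00111), whereas in WT the difference was 0.19 with a 95% interval from -0.20 to 0.59 (adjusted p = 0.385) and overlapping libraries. The effects differed between the genotypes by 1.23 (SE 0.24, adjusted p = 0.0261). This call was lost without Cav1KO soft 1 (adjusted p = 0.117), Cav1KO soft 2 (0.0956), WT stiff 1 (0.0956) or WT soft 1 (1.01, adjusted p = 0.0841), and the difference itself stayed between 0.99 and 1.48 under all alternatives. On stiff gels Hspg2 was lower in Cav1KO than in WT (-1.22, SE 0.17, adjusted p = 0.000495), and on soft gels the difference was 0.01 (from -0.38 to 0.41, adjusted p = 0.954). The low Hspg2 level coincided with the low fibroblast marker sum of the Cav1KO stiff libraries (5407 to 6470.0 CPM), whose part in it was not tested. That sum was highest in Cav1KO soft (14064 to 14136 CPM), where the mean of Hspg2 was 483.1 CPM. The highest group mean of Hspg2 was 547.7 CPM, in WT stiff (marker sum 10288 to 10425 CPM).

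The 3 syndecans each took a different course. Sdc2, which is typical of mesenchymal cells, was at 168.4 and 184.7 CPM in WT stiff and at 291.0 and 285.0 CPM in WT soft. Its Cav1KO level was 173.3 and 184.1 CPM on stiff and 234.5 and 230.5 CPM on soft gels. Thus the 4 stiff libraries lay together, and WT soft stood above Cav1KO soft. Sdc2 was lower on stiff gels in WT (-0.70, SE 0.07, adjusted p = 0.000157) and in Cav1KO (-0.38, SE 0.07, adjusted p = 0.00228), and the difference of effects was -0.33 (SE 0.10, adjusted p = 0.0698), which passed without Cav1KO stiff 1 (adjusted p = 0.0403). On soft gels Sdc2 was lower in Cav1KO than in WT (-0.31, SE 0.07, adjusted p = 0.00681), a call lost without Cav1KO soft 2 (adjusted p = 0.0547). On stiff gels the genotypes differed by 0.02 (from -0.15 to 0.18, adjusted p = 0.851).

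Sdc1, best known from epithelial and plasma cells, was at 262.7 and 278.9 CPM in WT stiff and at 276.7 and 277.2 CPM in WT soft. In Cav1KO it was at 233.0 and 240.0 CPM on stiff and at 180.1 and 190.1 CPM on soft gels. The WT libraries of both gels overlapped, and all Cav1KO libraries lay below all WT libraries. In Cav1KO the level was higher on stiff gels (0.35, SE 0.07, adjusted p = 0.00228), a value that fell to 0.18 under quantile normalization (adjusted p = 0.0295). In WT the difference was -0.03 (from -0.19 to 0.12, adjusted p = 0.717). The effects differed by -0.39 (SE 0.10, adjusted p = 0.0425), a call lost without Cav1KO soft 1 (adjusted p = 0.178), Cav1KO soft 2 (0.118), Cav1KO stiff 2 (0.0986), WT soft 1 (0.113), WT soft 2 (0.0828) or WT stiff 1 (0.145), and also without the mean-variance trend (0.0864), under quantile normalization (0.0619) and by edgeR (0.0532). Over all alternatives its adjusted p ran from 0.010 to 0.178. Sdc1 was lower in Cav1KO than in WT on soft gels (-0.58, SE 0.07, adjusted p = 0.000144). The difference on stiff gels (-0.19, SE 0.07, adjusted p = 0.0391) was lost whichever of the 8 libraries was left out, and also by DESeq2 (adjusted p = 0.116), under median centring (0.175), without the trend (0.0937) and with 2 groups per fit (0.112).

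Sdc4, a focal adhesion syndecan, was at 727.4 and 804.4 CPM in WT stiff and at 801.2 and 801.6 CPM in WT soft. For Cav1KO the values were 866.4 and 886.0 CPM on stiff and 967.9 and 970.0 CPM on soft gels. Every Cav1KO library lay above every WT library, while the stiffness differences were small: -0.07 in WT (from -0.24 to 0.10, adjusted p = 0.487) and -0.15 in Cav1KO (from -0.32 to 0.03, adjusted p = 0.130), differing by 0.08 (from -0.16 to 0.32, adjusted p = 0.623). Under quantile normalization the Cav1KO difference was -0.23 and passed (adjusted p = 0.00781). Sdc4 was higher in Cav1KO than in WT on soft gels (0.27, SE 0.07, adjusted p = 0.0138), but not without WT soft 1 (adjusted p = 0.0540), WT soft 2 (0.0521), Cav1KO soft 1 (0.0828) or Cav1KO soft 2 (0.0838). On stiff gels the difference was 0.20 (SE 0.07, adjusted p = 0.0553), and it passed without WT stiff 2 (adjusted p = 0.0349), by DESeq2 (0.0476), under median centring (0.0406) and under quantile normalization (0.00361).

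Of the glypicans, Gpc1 responded to stiffness in Cav1KO cells. It was at 181.7 and 161.3 CPM in WT stiff and at 142.4 and 183.3 CPM in WT soft. The Cav1KO values were 199.9 and 176.5 CPM on stiff and 115.4 and 125.1 CPM on soft gels. The Cav1KO soft libraries were the lowest, and those of the other 3 groups overlapped. In Cav1KO Gpc1 was higher on stiff gels (0.64, SE 0.13, adjusted p = 0.00265), in WT the difference was 0.08 (from -0.20 to 0.37, adjusted p = 0.615), and the difference of effects was -0.56 (SE 0.18, adjusted p = 0.0731), which passed by DESeq2 (adjusted p = 0.0255). Gpc1 was lower in Cav1KO than in WT on soft gels (-0.42, SE 0.13, adjusted p = 0.0198). This call was lost without WT soft 2 (-0.24, adjusted p = 0.132), Cav1KO soft 1 (adjusted p = 0.117) or Cav1KO soft 2 (0.0518) and under quantile normalization (0.0605), and over all alternatives its adjusted p ran from 0.00428 to 0.132. On stiff gels the genotypes differed by 0.13 (from -0.15 to 0.42, adjusted p = 0.407).

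Gpc6 was the gene that separated the genotypes most. In WT it was at 11.7 and 10.7 CPM on stiff and at 14.4 and 14.9 CPM on soft gels. In Cav1KO it was at 0.235 and 0.110 CPM on stiff gels (4 and 2 reads) and at 0.105 and 0.206 CPM on soft gels (2 and 4 reads). The Cav1KO libraries were thus at or near the limit of 3 reads on both gels. On stiff gels the WT level was 66.2 times the Cav1KO level (422 and 6 reads summed over the libraries, 95% exact interval of the read counts from 30.1 to 181), and on soft gels 94.5 times (517 and 6 reads, from 43.1 to 259). The adjusted p was 3.80e-07 on stiff and 1.81e-07 on soft gels by limma, where the fitted log2 differences (-3.38 and -3.76) depend on the pseudocount. Within WT the stiffness difference was -0.36 (from -0.68 to -0.04, adjusted p = 0.0646), which passed without the mean-variance trend (adjusted p = 0.0224) or with a pseudocount of 5 (0.0114). The Cav1KO stiffness effect was at the limit of detection and is given no fold, and its difference from the effect in WT is not given either. The adipocyte and the cartilage markers given above also differed between the genotypes in all libraries, and their part in the Gpc6 level was not tested.

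The genotype comparisons use the same libraries as the stiffness comparisons and are not independent of them. On stiff gels 6 of the 9 genes were lower in Cav1KO (Dcn, Bgn, Vcan, Hspg2, Sdc1 and Gpc6) and 0 higher, against 26.6% and 25.0% of all genes and 51.7% in either direction. At an unadjusted p under 0.05 limma had 1 gene higher on stiff gels (Sdc4), edgeR called 0 and DESeq2 1. On soft gels 4 were lower (Sdc1, Sdc2, Gpc1 and Gpc6) and 1 higher (Sdc4), against 29.9% and 24.1% of all genes and 54.0% in either direction. The median log2 difference of the 9 genes was -0.29 on stiff and -0.31 on soft gels, beside -0.03 over all genes in each. Libraries of both genotypes did not overlap for 7 of the 9 genes on either gel, against 72.7% of all genes on stiff and 81.1% on soft gels. Summed over the 9 genes, the level was 3471 to 3551 CPM in WT stiff, 4181 to 4337 CPM in WT soft, 2805 to 3061 CPM in Cav1KO stiff and 4422 to 4466 CPM in Cav1KO soft.

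**Figure D3:**
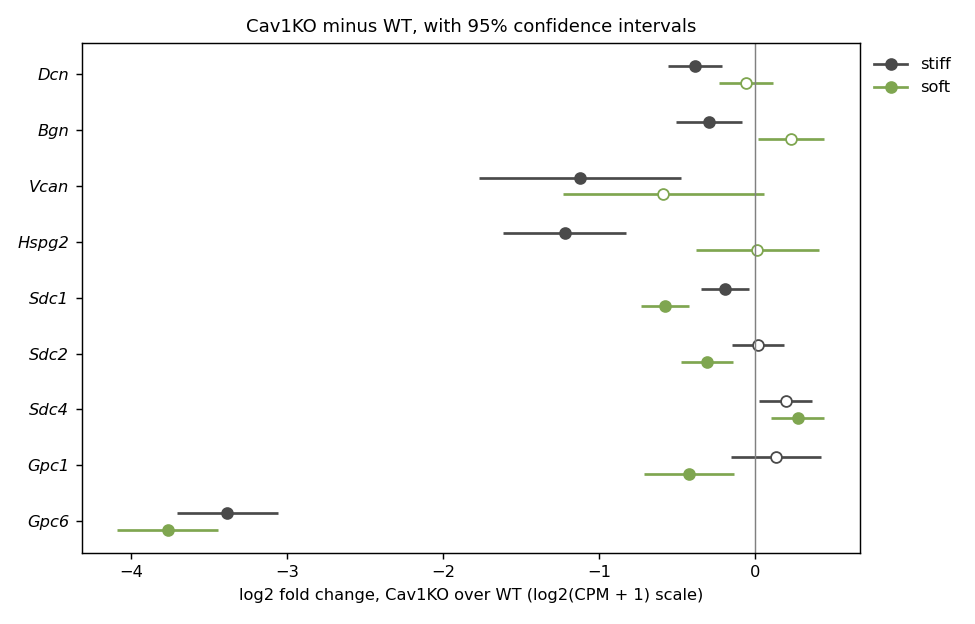
Log2 difference, Cav1KO minus WT, on the log2(CPM + 1) scale with its 95% confidence interval, on stiff and on soft gels. Filled points passed an adjusted p of 0.05. Gpc6 stands far to the left on both gels (-3.38 and -3.76, which depend on the pseudocount), and Hspg2 and Vcan are lower in Cav1KO on stiff gels.

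The table also held the remaining syndecan, Sdc3, and the glypicans Gpc2 and Gpc4, while Gpc3 and Gpc5 were not analysed here. Sdc3 was at 190.1 and 150.6 CPM in WT stiff, at 199.3 and 214.6 CPM in WT soft, at 102.6 and 85.1 CPM in Cav1KO stiff and at 158.9 and 166.5 CPM in Cav1KO soft. It was lower on stiff gels in Cav1KO (-0.79, adjusted p = 0.000810) and lower in Cav1KO than in WT on stiff gels (-0.85, adjusted p = 0.000594). On soft gels the genotype difference was -0.34 (adjusted p = 0.0438) and was lost without any 1 of the 4 soft libraries (adjusted p from 0.0880 to 0.182), without the trend (0.0769) and under quantile normalization (0.105). The stiffness difference in WT (-0.29, adjusted p = 0.0868) passed without WT stiff 1 (adjusted p = 0.0247) or under quantile normalization (0.0467), and the difference of effects (0.51, adjusted p = 0.0879) passed without Cav1KO stiff 1 (0.0285) or WT stiff 2 (0.0437) and by DESeq2 (0.0375).

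Gpc4, another lipid-anchored glypican, was higher in Cav1KO. It was at 20.8 and 21.1 CPM in WT stiff, at 33.9 and 28.4 CPM in WT soft, at 105.9 and 98.7 CPM in Cav1KO stiff and at 82.9 and 82.2 CPM in Cav1KO soft. Its Cav1KO libraries lay above all WT libraries, by 2.23 on the log2 scale on stiff gels (adjusted p = 4.66e-07) and 1.38 on soft gels (adjusted p = 7.74e-06). On stiff gels Gpc4 was lower in WT (-0.54, adjusted p = 0.00210) and higher in Cav1KO (0.31, adjusted p = 0.0255), the latter lost without Cav1KO soft 1 (adjusted p = 0.104), Cav1KO soft 2 (0.112) or Cav1KO stiff 1 (0.100) and under quantile normalization (0.19, adjusted p = 0.133). The effects differed by -0.85 (adjusted p = 0.0136), a call lost without Cav1KO soft 1 (adjusted p = 0.0876), Cav1KO soft 2 (0.0777) or WT stiff 1 (0.0607). Gpc2 was at 0.703 to 1.40 CPM in WT and at 2.63 to 4.68 CPM in Cav1KO, and was higher in Cav1KO on both gels (adjusted p = 0.000743 on stiff and 0.000219 on soft). Its stiffness difference was -0.24 in WT (adjusted p = 0.267) and -0.49 in Cav1KO (adjusted p = 0.0370), the latter lost without Cav1KO soft 1 (adjusted p = 0.0967), Cav1KO soft 2 (0.151) or Cav1KO stiff 2 (0.175), by edgeR (0.0708) and DESeq2 (0.259), with a pseudocount of 0.5 (0.0556), under median centring (0.0725) and under quantile normalization (-0.17, adjusted p = 0.432).

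Per kb of exon, Sdc4 made up most of the syndecan RNA in every group: 66.7% on stiff and 62.5% on soft gels in WT, and 72.8% and 72.9% in Cav1KO. Sdc2 made up 11.1% on stiff and 16.2% on soft gels in WT, and 10.7% and 12.6% in Cav1KO, while the share of Sdc1 was 15.8% and 14.4% in WT and 13.1% and 9.31% in Cav1KO. The glypicans differed by genotype. Gpc1 made up 77.1% of the listed glypican RNA in WT stiff and 68.5% in WT soft, but 48.1% and 42.0% in Cav1KO, where Gpc4 made up 50.96% and 56.1%, against 18.4% and 25.9% in WT. Gpc6 held 4.06% and 5.0% in WT and 0.0349% and 0.0433% in Cav1KO. The shares describe the libraries and were not tested, and those of the glypicans carry the uncertainty of Gpc1.

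**Figure D4:**
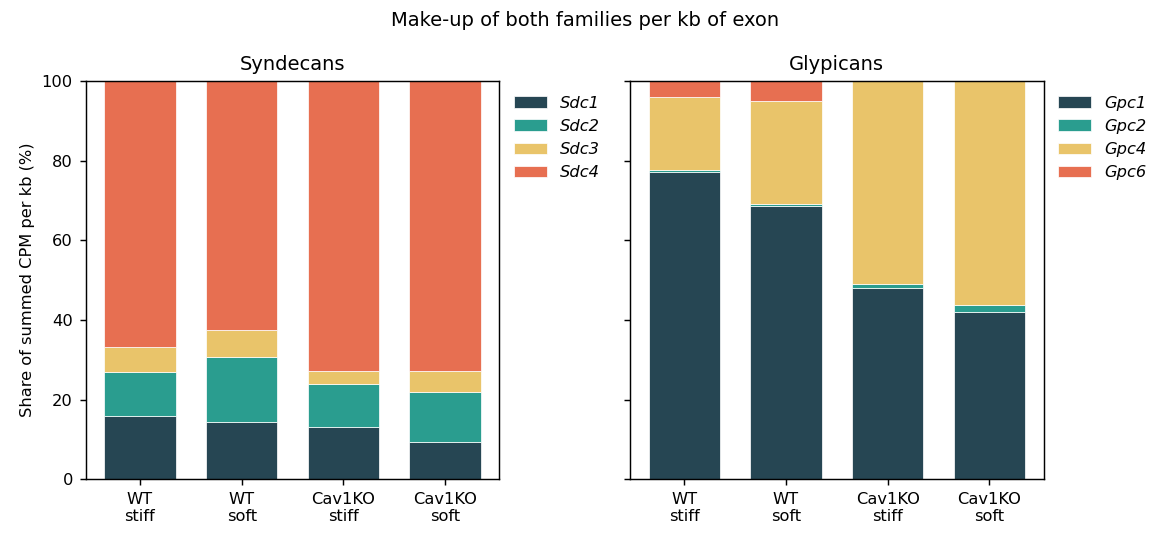
Mean share of each gene in the summed CPM per kb of its family, for syndecans and for the listed glypicans, in each of the 4 groups. Sdc4 takes the largest part of the syndecans in each group, and Gpc4 takes 50.96% and 56.1% of the glypicans in Cav1KO.

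The proteoglycan pathway around these genes was described with 13 further lists of 148 genes, 107 of which were in the table. Their counts stand beside the shares of all genes tested, which were 26.3% lower and 22.1% higher on stiff gels in WT and 28.2% and 27.9% in Cav1KO, and the lists were not tested against these shares. Among the other small leucine-rich proteoglycans, 5 of 7 tested genes were lower on stiff gels in WT and all 7 in Cav1KO, with 0 higher in either by limma, adjusted or at an unadjusted p under 0.05, by edgeR and by DESeq2. Their median log2 difference was -0.91 in WT and -1.08 in Cav1KO. For 1 of the 7 the fitted difference in WT was 0, so the counts of 5 and 7 do not compare the genotypes evenly. Ogn, which encodes osteoglycin, was at 5.73 and 7.30 CPM in WT stiff and at 62.6 and 41.5 CPM in WT soft (-2.80, adjusted p = 4.42e-05), and Prelp was at 2.59 and 1.48 CPM in Cav1KO stiff and at 17.9 and 19.9 CPM in Cav1KO soft (-2.74, adjusted p = 1.89e-05). Thus most listed relatives of Dcn and Bgn were also higher on soft gels. Of the 3 other basement membrane proteoglycans, 3 were lower on stiff gels in WT and 2 in Cav1KO, among them Col18a1 in WT (-1.35, adjusted p = 0.000180) and Agrn, which encodes agrin, in Cav1KO (-1.90, adjusted p = 5.46e-05). Col18a1 was also lower in Cav1KO (-0.74, adjusted p = 0.00239), and Agrn also in WT (-1.22, adjusted p = 0.000677). Of 4 hyaluronan-binding and link protein genes, 2 were higher and 1 lower on stiff gels in each genotype. Cd44, the main hyaluronan receptor, was at 407.9 and 393.2 CPM in Cav1KO stiff and at 290.4 and 282.5 CPM in Cav1KO soft (0.48, adjusted p = 0.00127). Its level was higher on stiff gels in WT too (0.50, adjusted p = 0.00147). In WT the gene with the largest change was Hmmr (0.93, adjusted p = 0.0250), a call lost without WT stiff 1 (0.56, adjusted p = 0.167) or WT soft 1 (0.72, adjusted p = 0.169).

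Next came the genes that build the chains. Of 7 enzymes of the linker that joins chain and protein, 3 were lower in WT and 2 in Cav1KO on stiff gels, and 1 was higher in Cav1KO. Of 13 heparan sulfate enzymes, 5 were lower and 1 higher in WT, and 7 lower and 2 higher in Cav1KO. Sulf2, which removes sulfate from heparan sulfate outside the cell, was at 6.88 and 5.87 CPM in WT stiff and at 30.3 and 27.2 CPM in WT soft (-2.01, adjusted p = 5.88e-05), and at 16.7 and 11.8 CPM in Cav1KO stiff and at 58.1 and 56.4 CPM in Cav1KO soft (-1.95, adjusted p = 3.19e-05). It was thus higher on soft gels in both genotypes. Chondroitin and dermatan sulfate enzymes were lower on stiff gels for 5 of 14 in each genotype, with 0 higher by limma, adjusted or not, by edgeR and by DESeq2. The largest changes were those of Chpf2 in WT (-0.76, adjusted p = 0.000656) and of Ust in Cav1KO (-0.72, adjusted p = 0.0102), the latter lost without Cav1KO soft 1 (adjusted p = 0.0642) or Cav1KO stiff 2 (0.0603). Pxylp1, a phosphatase acting on the linker xylose, was lower on stiff gels in WT (-1.16, adjusted p = 8.80e-05) and in Cav1KO (-1.08, adjusted p = 6.38e-05). Of 10 genes for sulfate and sugar nucleotide supply, 3 were lower and 1 higher in WT, and 1 was lower and 3 higher in Cav1KO, with the sulfate transporter Slc26a2 lower in WT (-0.69, adjusted p = 0.000785) and in Cav1KO (-0.60, adjusted p = 0.00119).

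The genes that cut or degrade proteoglycans were described as a group next. Of 16 cleaving and shedding enzymes, 10 were lower in WT and 13 in Cav1KO, with 0 higher in either (by limma, adjusted or not, by edgeR and by DESeq2). Mmp14, a membrane-bound metalloproteinase, was at 54.8 and 43.2 CPM in Cav1KO stiff and at 264.2 and 258.8 CPM in Cav1KO soft (-2.40, adjusted p = 1.33e-05), and Adamts1 was lower in WT (-1.66, adjusted p = 0.00123). Mmp14 was also lower in WT (-0.76, adjusted p = 0.00289), and Adamts1 also in Cav1KO (-1.20, adjusted p = 0.00488). Of 12 lysosomal enzymes of glycosaminoglycan degradation, 10 were lower in each genotype. The median log2 difference was -0.53 in WT and -0.90 in Cav1KO for the cleaving enzymes and -0.62 and -0.99 for the lysosomal ones, beside -0.02 over all genes. Of 5 genes of hyaluronan synthesis and turnover, 3 were lower in WT, and 1 was lower and 2 higher in Cav1KO. Cemip, which takes part in hyaluronan breakdown, was at 4.02 and 3.99 CPM in WT stiff and at 45.1 and 38.3 CPM in WT soft (-3.09, adjusted p = 2.16e-05). In the Cav1KO libraries Cemip was at 3.001 and 3.07 CPM on stiff and at 6.38 and 4.99 CPM on soft gels (-0.72, adjusted p = 0.00337). The WT soft libraries thus stood far above the other 6. Of 5 other cell surface and secreted genes, 2 were lower and 1 higher in WT and 1 was lower in Cav1KO, with Smoc1 falling most in WT (-1.35, adjusted p = 0.000451) and Tgfbr3, which encodes betaglycan, in Cav1KO (-0.91, adjusted p = 0.000648). Of 8 cytoplasmic partners of syndecans, 2 were lower and 1 higher in WT, and 4 were lower in Cav1KO, with ezrin (Ezr) falling most there (-0.94, adjusted p = 0.00158). Tiam1 was higher on stiff gels in WT (0.76, adjusted p = 0.0196), but not without WT stiff 1 (adjusted p = 0.128) or WT soft 1 (0.130).

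**Figure D5:**
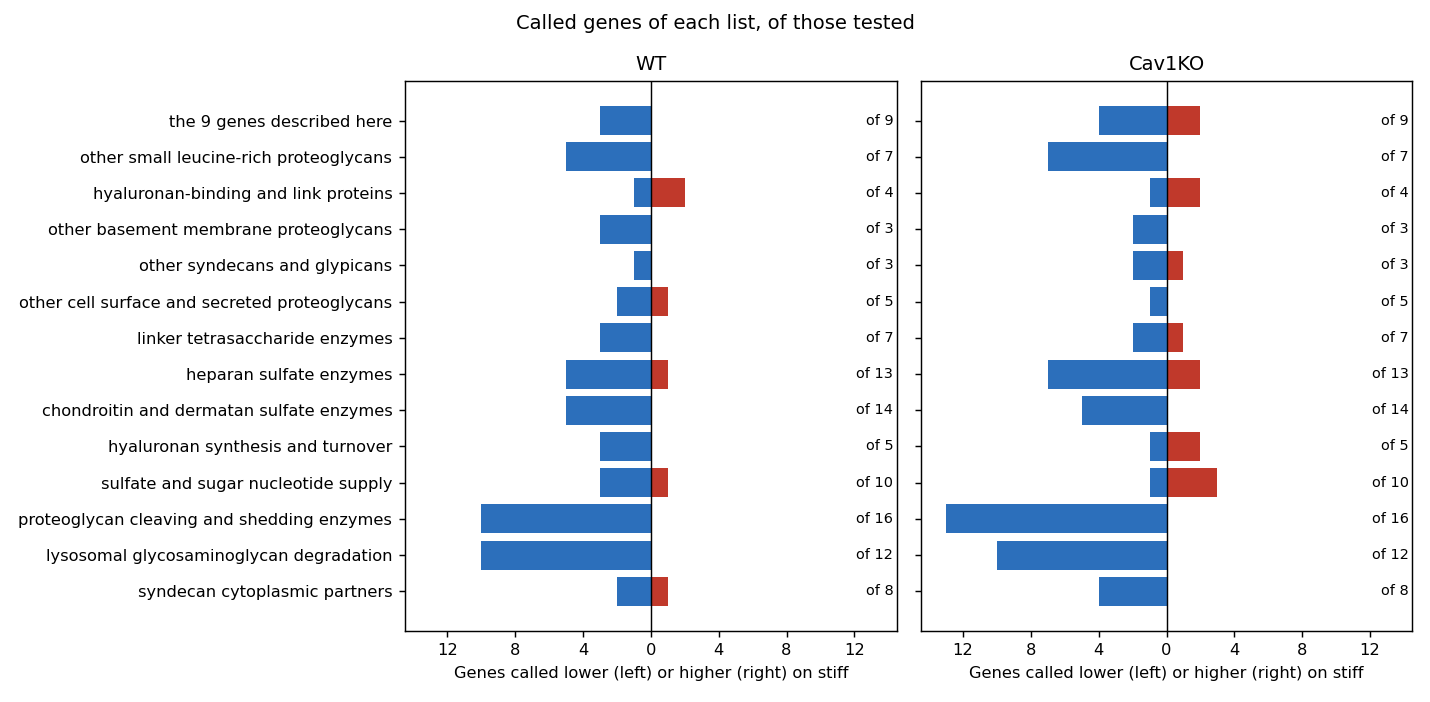
Number of tested genes of each list called lower (bars to the left) or higher (bars to the right) on stiff gels by limma at an adjusted p under 0.05, in WT and in Cav1KO MEFs, with the number tested at the right. Cleaving enzymes (10 of 16 lower in WT, 13 of 16 in Cav1KO) and lysosomal enzymes (10 of 12 in each) have the longest bars.

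Between genotypes, 2 of the genes named here had 3 reads or fewer in a group, Cspg4 in Cav1KO and Mmp3 in WT stiff. Cspg4, the gene of the NG2 chondroitin sulfate proteoglycan, was at 20.9 and 16.9 CPM in WT stiff and at 19.7 and 28.4 CPM in WT soft. It had 0 reads in both Cav1KO stiff libraries, at least 107-fold lower against a limit of 3 reads per library, and 3 reads in all in Cav1KO soft, where the WT level was 313 times as high (95% exact interval from 107 to 1519). Mmp3, a stromelysin that cuts matrix proteins, had 3 reads in all in WT stiff and 2123 in Cav1KO stiff (752 times, from 257 to 3650), and was at 1.75 and 1.77 CPM in WT soft and at 81.5 and 82.2 CPM in Cav1KO soft (4.91, adjusted p = 4.98e-08). Tnfaip6, which binds hyaluronan, was higher in Cav1KO by 3.29 on stiff (adjusted p = 1.75e-07) and 2.88 on soft gels (adjusted p = 3.59e-07), and Chst15, a chondroitin sulfotransferase, by 1.67 (adjusted p = 9.83e-06) and 2.13 (adjusted p = 2.19e-06). Lower in Cav1KO were Podnl1 on stiff gels (-2.50, adjusted p = 2.25e-06) and, on soft gels, Cemip (-2.68, adjusted p = 1.87e-06) and Ugdh, which makes the uronic acid donor of the chains (-0.77, adjusted p = 2.61e-05). Podnl1 was also lower on soft gels (-1.44, adjusted p = 5.20e-05). Also higher in Cav1KO were Sulf2, by 1.03 on stiff (adjusted p = 0.000742) and 0.97 on soft gels (adjusted p = 0.000961), Pxylp1 by 0.71 (adjusted p = 0.000590) and 0.63 (adjusted p = 0.00104), Col18a1 by 0.92 on stiff gels (adjusted p = 0.000827) and Prelp by 1.97 on soft gels (adjusted p = 4.41e-05). Prelp was higher on stiff gels too (1.24, adjusted p = 0.000702). Galns, a lysosomal sulfatase, was higher in Cav1KO by 1.08 on stiff (adjusted p = 0.000123) and 1.60 on soft gels (adjusted p = 1.13e-05), and Tiam1 by 1.01 on soft gels (adjusted p = 0.00454). On stiff gels Ezr (-1.54, adjusted p = 0.000103), the sugar nucleotide transporter gene Slc35d1 (-0.75, adjusted p = 0.00120) and Tmem2 (-0.60, adjusted p = 0.00292) were lower in Cav1KO. Slc35d1 (-0.67, adjusted p = 0.00207) and Tmem2 (-0.91, adjusted p = 0.000259) were also lower on soft gels. Over all genes, 25.0% were higher and 26.6% lower in Cav1KO on stiff gels, and 24.1% and 29.9% on soft gels, and the lists were not tested against these shares. By list, the higher and lower counts in Cav1KO were 1 and 1 of 7 on stiff and 3 and 2 of 7 on soft gels for the other small leucine-rich proteoglycans, 6 and 4 of 13 and 5 and 3 of 13 for heparan sulfate enzymes, 3 and 5 of 14 and 1 and 4 of 14 for chondroitin and dermatan sulfate enzymes, 7 and 6 of 16 and 10 and 3 of 16 for cleaving enzymes, and 6 and 0 of 12 and 7 and 1 of 12 for lysosomal enzymes, where the 0 holds at an unadjusted p, by edgeR and by DESeq2 too. In the smaller lists 1 gene was higher and 2 lower of the 4 hyaluronan-binding genes on each gel, 2 were higher and 1 lower of the 3 other syndecans and glypicans on each gel, and 1 was higher and 3 lower on stiff and 2 higher and 3 lower on soft gels of the 5 other cell surface and secreted genes. The supply genes had 2 higher and 1 lower of 10 on stiff gels and 4 lower on soft gels, the linker enzymes 2 higher of 7 on stiff and 2 higher and 1 lower on soft gels, the hyaluronan genes 1 lower of 5 on stiff and 3 lower on soft gels, the syndecan partners 1 higher and 1 lower of 8 on stiff and 4 higher and 2 lower on soft gels, and the other basement membrane genes 1 higher and 1 lower of 3 on stiff and 1 lower on soft gels. The stiffness effect differed between the genotypes for 6 of 16 cleaving enzymes with a positive and 1 with a negative difference, and for 3 or fewer genes of each other list, beside 4.47% of all genes with a positive and 6.0% with a negative difference.

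The genes whose levels ran most like each of the 9 across the 8 libraries were found by Pearson's r of log2(CPM + 1) among 10064 genes. They are a description, since the 8 libraries form 4 groups. Nearest to Dcn were Anxa1 (r = 0.997) and Zfyve1 (0.997), to Bgn Anxa6 (0.997) and Col16a1 (0.995), to Vcan Txlna (0.985) and Farp2 (0.982), and to Hspg2 Zfhx3 (0.990) and Zmiz1 (0.988). For the syndecans they were Tmx3 (0.995) and 2610034B18Rik (0.994) with Sdc1, Usp22 (0.993) and Tmub2 (0.992) with Sdc2, and Cox8a (0.983) and Idh2 (0.981) with Sdc4. The glypican Gpc1 ran most like 0610010F05Rik (0.969) and Slc7a1 (0.953), and Gpc6, whose values separate the genotypes, most like Igfbp3 (0.9995) and Sohlh2 (0.999).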

How the data were processed

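RNA was sequenced from 8 libraries (single reads of 60 bases, poly(A) selection from 500 ng of total RNA). The submitters' processing notes name CASAVA 1.8.2, cutadapt, RSEM 1.2.3 and GRCm38, with no order or settings. The authors deposited a signal per gene and library, CPM with TMM scaling, for 12528 genes. TMM divides each library by an effective size, so a change shared by most genes would be scaled away. All values (100%) were whole multiples of 1 read within 0.01 read, and the recovered reads (17089836 to 19944952 per library) were used for the count tests and for intervals, which cover counting error only.

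Groups follow the genotype and gel in the labels. The 12494 genes that reached 1 CPM in 2 or more libraries were tested on log2(CPM + 1) by limma 3.58.1 in R 4.3.3, two-sided, with 4 groups in a single fit, a mean-variance trend and 4 residual degrees of freedom. p-values were adjusted by Benjamini-Hochberg over all genes tested, with a threshold of 0.05. The log2(CPM + 1) scale understates changes of low genes. Members and lists were chosen with earlier results of these data known. By rule, the text names the members, the other syndecans and glypicans, the 2 most alike genes of each member and, per list and comparison, genes with the largest change past the threshold, both among genes with a mean of at least 5 CPM. The rule allowed up to 4 of the latter, and at most 1 was taken, with none for the difference of effects. These numbers were set after the values were seen, and 1 result is not reported here. Gene positions come from GENCODE M21 (12451 of 12528 genes matched), and 78 genes have no symbol in the table. Lengths for CPM per kb are summed exons. Alternatives were pseudocounts of 0.5 and 5, no filter, no trend, a replicate block, a crossed block, quantile normalization, median centring, 2 groups per fit, edgeR 4.0.16 and DESeq2 1.42.0 on recovered reads, and leaving out each library. In the crossed block the WT soft replicate numbers were swapped, a choice made after seeing the data. Ranges over all alternatives include it. The fit was run on simulated data with 200 genes changed in WT stiff alone, far fewer than were called here. That run does not measure the error rate in these data.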

Additional observations from a re-analysis of the deposited data

Results flagged for a closer look

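Among the 9 genes and the 3 other syndecans and glypicans of the table, the effect of stiffness differed between WT and Cav1KO MEFs by limma's interaction term at an adjusted p under 0.05 for Bgn, Hspg2, Sdc1 and Gpc4. Of the list genes named above, negative differences were called for Cemip (-2.37, adjusted p = 0.00201), Smoc1 (-1.26, 0.0260), Ugdh (-0.71, 0.00699) and Chpf2 (-0.61, 0.0431). Smoc1 was at 0.767 to 1.53 CPM (14 to 26 reads) in the Cav1KO libraries and at 13.9 to 38.4 CPM in the WT libraries. At such a low level the log2(CPM + 1) scale understates any stiffness effect of Smoc1 in Cav1KO. Mmp3 was called as well (-0.90, 0.0350), but it had 3 reads in all in WT stiff. Positive differences were called for Mmp14 (1.64, 0.00540), Ezr (1.38, 0.0171), Tiam1 (1.34, 0.0373) and Podnl1 (1.05, 0.0224). How these calls fare without single libraries is not given here. The remaining list genes are given above by their counts. For Hspg2 the effect in WT exceeded that in Cav1KO by 1.23 on the log2 scale (adjusted p = 0.0261), with both Cav1KO stiff libraries below every other library. For Bgn the difference was 0.53 (adjusted p = 0.0431), and both Cav1KO soft libraries lay above both WT soft libraries. For Sdc1 it was -0.39 (adjusted p = 0.0425), with overlapping libraries in WT. For Gpc4 it was -0.85 (adjusted p = 0.0136), with a fall on stiff gels in WT and a rise in Cav1KO. The calls of Bgn, Hspg2, Sdc1 and Gpc4 were all lost when single libraries were left out, as given with each gene above. With 2 libraries per group, outlying samples were not tested.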

How the results depend on the processing

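Each result was recomputed under 19 alternatives, or 18 for the difference of effects. For the 9 genes, leaving out 1 library kept direction and call in 302 of the values, ended a call in 38, added one in 8 and turned the sign in 12. The other alternatives kept 446, ended 12, added 25 and turned 3. The calls of Dcn, Bgn and Sdc2 in both stiffness comparisons, of Hspg2, Sdc1 and Gpc1 in Cav1KO stiff versus soft, of Dcn, Hspg2 and Gpc6 between genotypes on stiff gels and of Sdc1 and Gpc6 on soft gels held under all 19. The signs that turned belonged to differences that did not pass: Dcn between genotypes on soft gels (0.10) and Gpc2 in WT (0.024) under quantile normalization, Hspg2 between genotypes on soft gels by edgeR (-0.00251) and Sdc1 in WT under median centring (0.0097). Leaving out 1 library gave stiffness differences from -0.12 to 0.59 for Vcan in Cav1KO, from -0.027 to 0.41 for Hspg2 in WT, from -0.0756 to 0.0103 for Sdc1 in WT, from -0.14 to 0.0053 for Sdc4 in WT, and from -0.098 to 0.26 for Gpc1 in WT, and genotype differences from -0.21 to 0.23 for Hspg2 on soft and from -0.048 to 0.085 for Sdc2 on stiff gels. The fitted values of Gpc6 in Cav1KO, from -0.057 to 0.098, rest on 2 to 4 reads per library and carry no information on stiffness. The cause was not tested.

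The 9 genes called higher in WT numbered 1 under a pseudocount of 5, the replicate block, the crossed block, median centring and edgeR, against 0. Between genotypes on stiff gels, 1 was higher under the crossed block, quantile normalization, median centring and DESeq2, against 0, and on soft gels 2 were higher under both blocks, quantile normalization, 2 groups per fit and DESeq2, against 1. For the difference of effects, positive calls numbered 1 without the trend and 4 with the crossed block, against 2. Negative calls numbered 0 without the trend, with quantile normalization and by edgeR, 2 by DESeq2 and 3 with the crossed block, against 1. Over all genes this comparison had 1309 calls, 705 without the trend and 3653 with the crossed block.

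Leaving out 1 library gave 3913 to 6509 calls over all genes in WT stiff versus soft, 5147 to 6903 in Cav1KO, 110 to 3436 for the difference of effects, and 4832 to 6410 and 4826 to 7187 between genotypes on stiff and soft gels. Members higher and lower ranged from 0 to 1 and 3 to 3 in WT, 2 to 2 and 4 to 4 in Cav1KO, 0 to 3 and 0 to 2 for the difference of effects, 0 to 1 and 3 to 5 on stiff and 0 to 2 and 2 to 4 on soft gels. In these fits the lone library of a group is assumed to vary like the others.

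The labels tie the replicate numbers to no shared day or culture. Replicate-1 deviations from the group means correlated from -0.37 (WT stiff with WT soft) to 0.42 (WT stiff with Cav1KO stiff). Whether libraries of different groups shared a batch was not tested. With the replicate block, 2767 genes were higher and 3213 lower in WT, against 2763 and 3283. The crossed pairing, with the WT soft numbers swapped, was chosen after seeing the data, and its counts are those given above for the crossed block.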
